A study of Mus musculus with 12 samples.

Results

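The crystallin genes were examined in the retinal pigment epithelium (RPE), the pigmented cell layer behind the photoreceptors, of wild-type and Mfrp-mutant mice. The genes were chosen by symbol: Cryaa and Cryab of the alpha family, Cryba1, Cryba2, Cryba4, Crybb1, Crybb2 and Crybb3 of the beta family, and Crygs and Crygn, which are grouped with the gamma family. Of these 10 genes, 9 had an entry among the 28591 genes of the table, and Cryba2 was not analysed here. The study set 6 RPE samples of WT mice (C57BL/6J) against 6 RPE samples of rd6 mice, which are homozygous for the rd6 allele of Mfrp, a membrane protein of the RPE, and all mice were 1 mo of age. Mice of both sexes were used, RPE from both eyes was combined in each sample, and the front of the eye and the neural retina were taken off before the RPE was collected. The rd6 allele is inherited through the germ line, so all tissues of these mice carry it.

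Crystallins are the abundant soluble proteins that give the lens its refractive power. The alpha crystallins belong to the small heat shock proteins, chaperones that bind unfolding proteins without using ATP, and Cryab is also made in heart, skeletal muscle, glia and RPE. The beta and gamma crystallins share a fold built of Greek key motifs and are best known as structural proteins of lens fibre cells, although RNA of several of them is found in retina, and Crybb1 RNA has been described in microglia.

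The 12 libraries held 28907262 to 33152725 reads assigned to genes, with medians of 30017490.5 in WT and 30868902.5 in rd6. Values are normalized counts, that is reads divided by the size factor of the library, and 3 reads, taken as the floor, correspond to 2.71 to 3.32 normalized counts. The mutated gene Mfrp was lower in rd6 (25881 ± 3091 against 40022 ± 5488 normalized counts, SD, n = 6), with no overlap between the genotypes, and its RNA was still present in all rd6 libraries. The RPE genes used as a check, such as Rpe65 and Best1, summed to 1469345 to 2312021 normalized counts in all 12 libraries. In 3 libraries, WT replicate 4 and rd6 replicates 1 and 5, the corneal keratin Krt12 exceeded 1000 normalized counts, and the results on the crystallins are also given without them. Nothing in the labels ties a sample to a litter or a preparation, so the errors measure the spread between these samples.

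The crystallins differed widely in level in the RPE. Of the 9 crystallins with an entry, only Cryab was abundant. It supplied 96.5 to 97.5% of their summed counts in the WT libraries and 95.1 to 96.5% in the rd6 libraries. Crygn was found at 222 to 363 normalized counts, Crybb3, Cryba4 and Crybb1 at about 20 or fewer on average, and Cryaa, Cryba1, Crybb2 and Crygs at or under 3 reads in each of the 12 libraries. Per length, on the TPM scale (reads per base of exon, scaled to the same total in each library), the order in WT was Cryab (511 ± 40.7), Crygn (23.9 ± 2.12), Crybb3 (0.595 ± 0.175), Cryba4 (0.236 ± 0.142) and Crybb1 (0.186 ± 0.144; SD, n = 6). Of these neighbours, Cryba4 and Crybb1 in WT lay within their spread. In rd6 the order was Cryab (436 ± 38.0), Crygn (29.4 ± 2.61), Cryba4 (1.11 ± 0.161), Crybb1 (0.878 ± 0.347) and Crybb3 (0.593 ± 0.309), so that Cryba4 and Crybb1 stood above Crybb3 by their means, with the spreads of Crybb1 and its neighbours on both sides overlapping.

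**Figure D1:**
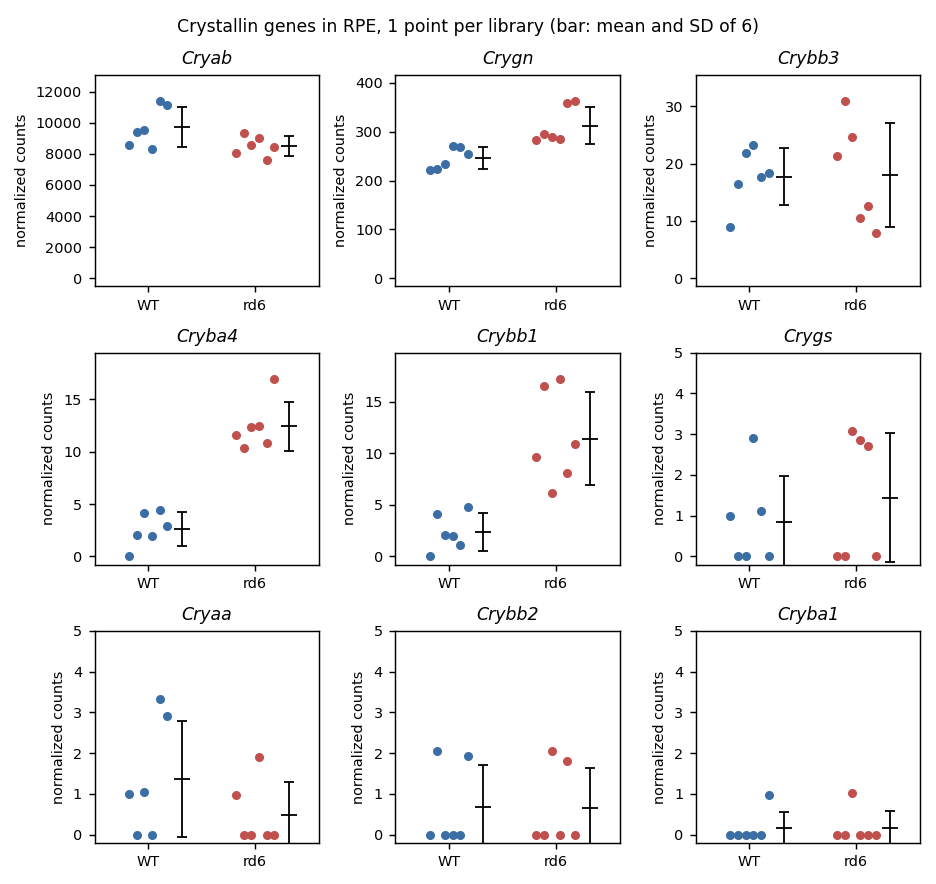
Normalized counts of the 9 crystallin genes (y axis, linear, a scale of its own for each gene) in the 6 WT and 6 rd6 libraries, with 1 point per library and the mean and SD (n = 6) beside each group. The rd6 points of Crygn, Cryba4 and Crybb1 all lie above the WT points, those of Cryab and Crybb3 overlap, and the remaining 4 genes stay at or under 3 reads.

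Between the genotypes, 3 crystallins averaged 10 or more normalized counts over the 12 libraries and entered the test across 17768 genes (limma, Benjamini-Hochberg adjusted p-value, q, below 0.05). Crygn was called higher in rd6, none was called lower, and Cryab and Crybb3 did not pass. Among all genes tested, 11.4% were called higher and 11.6% lower. Cryba4 and Crybb1 had means of 7.49 and 6.89 normalized counts, below the limit, and both were higher in rd6 when all 28591 genes were tested without a filter. The sum of the 8 crystallins other than Cryab ranged from 233 to 301 normalized counts in WT (median 275) and from 327 to 399 in rd6 (median 346), so the summed values did not overlap. Crygn made up 88.9 to 95.3% of the reads of this sum in WT and 83.6 to 91.0% in rd6.

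Cryab encodes the alpha B subunit of the lens chaperone and lies at chr9:50751325-50756636 (GRCm38, plus strand; ENSMUSG00000032060). In WT its normalized counts ran from 8296 to 11391, with a median of 9464. In rd6 they ran from 7614 to 9347, with a median of 8513. The lower rd6 mean (8515 ± 631 against 9712 ± 1288, SD, n = 6) came with 2 high WT libraries, replicates 5 and 6, and the genotypes overlapped. The difference was -0.18 on the log2 scale, rd6 minus WT (SE 0.08, q = 0.142, limma), with a 95% interval from 0.776-fold to 1.00-fold, and a two-sided exact permutation test of the 12 libraries gave p = 0.0693. Cryab therefore did not pass the test, while a decrease to 0.776 of the WT level lay within the interval. Cryab shares 1030 bases with Hspb2 on the opposite strand, and the counting tool was run with its standard settings, which ignore the strand and leave reads that overlap both genes unassigned, so such reads may be missing from both.

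Skeletal muscle contains much Cryab, and the muscle genes differed between the genotypes. The sum of 10 skeletal muscle genes such as Acta1 and Ckm ran from 13011 to 53266 normalized counts in WT and from 51203 to 72482 in rd6, and 7 of the 10 were called higher in rd6 and none lower, against 11.4% and 11.6% of all genes tested. Cryab itself lies 6.64 Mb from Mfrp on chromosome 9. Of the 180 genes tested within 10 Mb of Mfrp, 31.7% were called in either direction, against 23.0% of all genes tested. The part of either in the values of Cryab was not tested.

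Cryaa, the alpha A subunit that makes up most of the alpha crystallin of the lens (chr17:31677807-31681733, plus strand; ENSMUSG00000024041), had 8 reads over the 6 WT libraries and 3 over the 6 rd6 libraries. No library held more than 3 reads. An annotated antisense gene covers the whole locus, but it has no entry among the genes analysed. If it took part in the counting, reads that overlap both genes may be missing. At these counts a difference was not detectable, and no fold change is given.

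Of the beta crystallins, Cryba4 and Crybb1 are neighbours on chromosome 5. Cryba4, an acidic beta crystallin, lies at chr5:112246493-112252518 on the minus strand (ENSMUSG00000066975) and Crybb1, a basic one, at chr5:112255815-112269585 on the plus strand (ENSMUSG00000029343). Their start sites are 3297 bases apart and the genes are transcribed away from each other. Because these 2 low genes were both higher in rd6, their promoter windows are shown, from 250 bases before to 50 bases after the RefSeq start site, 5′ to 3′ on the strand of the gene (RefSeq, GRCm38.p6). The Crybb1 window is chr5:112255570-112255869 on the plus strand and the Cryba4 window chr5:112252469-112252768 on the minus strand. Capitals mark matches to TATAAA, the TATA box, and to TGCTGA, a half-site bound by MAF proteins, the transcription factors best known for driving lens crystallin genes.
Crybb1: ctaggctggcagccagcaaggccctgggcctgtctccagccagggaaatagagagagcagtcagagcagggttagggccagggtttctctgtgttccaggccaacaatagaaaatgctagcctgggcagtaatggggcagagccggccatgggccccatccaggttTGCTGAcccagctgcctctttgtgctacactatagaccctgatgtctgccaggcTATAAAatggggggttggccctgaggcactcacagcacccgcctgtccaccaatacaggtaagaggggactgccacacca
Cryba4: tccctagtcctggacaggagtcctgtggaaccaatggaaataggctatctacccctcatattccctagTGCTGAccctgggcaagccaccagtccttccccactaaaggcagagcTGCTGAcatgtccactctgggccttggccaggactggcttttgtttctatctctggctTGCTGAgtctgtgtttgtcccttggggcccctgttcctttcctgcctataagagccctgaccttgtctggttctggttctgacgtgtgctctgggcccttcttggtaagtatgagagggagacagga
Both strands were searched for these motifs, for the core bound by the myeloid factor PU.1, written GAGGAA, and for the core of the heat shock element, written GAANNTTC. TATAAA was found once, in Crybb1 at positions -30 to -25 from the start site, and it is present in 13.6% of 32851 promoter windows. TGCTGA was found in Crybb1 at -84 to -79 and in Cryba4 at -182 to -177, -135 to -130 and -77 to -72, and 19.5% of all windows hold at least 1 match. GAGGAA, which 28.3% of all windows hold, and GAANNTTC, which 7.86% hold, were not among the letters of these 2 windows. The GC content was 58.3% for Crybb1 and 54.3% for Cryba4. The matches describe letters and show no binding. Promoters of the crystallins that were not called higher were not searched, so the matches cannot be set against theirs.

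Cryba4 was at 0 to 4.43 normalized counts in WT, with a median of 2.48. In rd6 it was at 10.3 to 16.9, with a median of 11.97. All rd6 libraries thus lay above all WT libraries, with 10 to 17 reads each against at most 4. The mean was 12.4 ± 2.35 in rd6 and 2.58 ± 1.63 in WT (SD, n = 6), a ratio of 4.81. Fitted without a filter, the log2 fold change was 2.07 (SE 0.39, 95% interval 1.24 to 2.90, q = 0.00241, limma), on a scale of log2(value + 1) that understates changes of low genes, and the exact permutation test gave p = 0.00216, the smallest that 6 libraries against 6 allow.

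Crybb1 was at 0 to 4.83 normalized counts in WT, with a median of 2.01. In rd6 it was at 6.16 to 17.2, with a median of 10.3. The genotypes did not overlap here either, but the gap was narrow, with at least 6 reads in each rd6 library and at most 5 in each WT library. The mean was 11.4 ± 4.49 in rd6 and 2.35 ± 1.82 in WT (SD, n = 6), a ratio of 4.87. The log2 fold change without a filter was 2.03 (SE 0.43, 95% interval 1.11 to 2.95, q = 0.00581, limma; exact permutation p = 0.00216). Without a filter 6.74% of 28591 genes were called higher and 6.52% lower, and the rd6 libraries lay wholly above the WT libraries for 3.82% of them. Among the 1421 genes with a mean of 5 to 10, as these 2 have, 4.15% were called higher. For 2.39% of the 1421, the rd6 libraries lay wholly above the WT libraries. Both genes were also called higher by edgeR without a filter (Cryba4 2.24, q = 0.00279, and Crybb1 2.24, q = 0.00866), which called 6.91% of genes higher and 5.48% lower, and by DESeq2, which called 11.0% higher. The 2 genes rest on 91 and 84 reads in all 12 libraries together, which limits the precision of both ratios.

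Among the gene lists examined, that of microglia and macrophages had the highest median change. Of its 16 genes, 15 were called higher and none lower, with a median log2 fold change of 3.57 against 0.00 for all genes tested, of which 11.4% were called higher. The rd6 libraries lay wholly above the WT libraries for 13 of the 16, against 5.77% of all genes tested. Csf1r, the receptor that keeps microglia alive, was the exception. All 16 genes summed to 17496 to 23202 normalized counts in WT and to 34633 to 60873 in rd6. Leaving out Csf1r, a choice made after its values were seen, the other 15 genes, such as P2ry12, Trem2 and C1qa, summed to 3048 to 4919 in WT and to 17097 to 40021 in rd6. Crybb1 and Cryba4 together summed to 0 to 7.73 in WT and to 18.5 to 29.6 in rd6. Within rd6, replicates 1 to 6 held 21.3, 26.8, 18.5, 29.6, 19.0 and 27.8 in the crystallin sum. Their sums of the 15 microglia genes were 17097, 30534, 21268, 40021, 35258 and 35946. Replicate 4 was highest and replicates 1 and 3 were low in both, whereas replicate 5 was low in the crystallin sum only. The part of these cells in the counts of Crybb1 and Cryba4 was not tested, and in bulk RNA more cells of a type and more RNA per cell cannot be told apart.

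**Figure D2:**
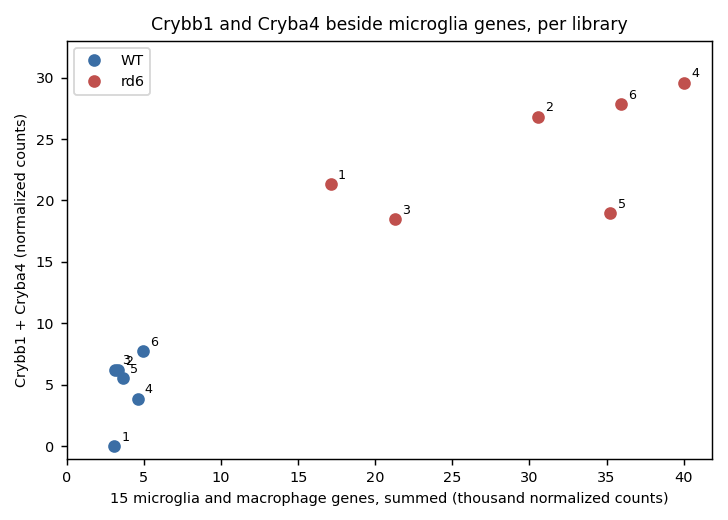
Sum of 15 microglia and macrophage genes (x axis, normalized counts, in units of 1000) against the sum of Crybb1 and Cryba4 (y axis, normalized counts), both linear, with 1 point per library and the replicate number beside it. The 6 WT libraries lie at 3048 to 4919 on the x axis and at 0 to 7.73 on the y axis, and the 6 rd6 libraries at 17097 to 40021 and at 18.5 to 29.6, which leaves 2 separate groups. Csf1r was left out of the sum after its values were seen, and with it the x values would run from 17496 to 23202 in WT and from 34633 to 60873 in rd6.

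The genes around the pair differed by smaller amounts. Within 500 kb on either side, 8 other genes were tested, of which 1 was called higher in rd6 and none lower, a share near the 11.4% of all genes called higher, with log2 fold changes from -0.96 to 0.27. The gene called was Tpst2, a tyrosylprotein sulfotransferase 7106 bases from Crybb1, with 697 ± 60.5 normalized counts in WT and 841 ± 60.7 in rd6 (SD, n = 6; log2 fold change 0.27, SE 0.07, q = 0.0125).

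**Figure D3:**
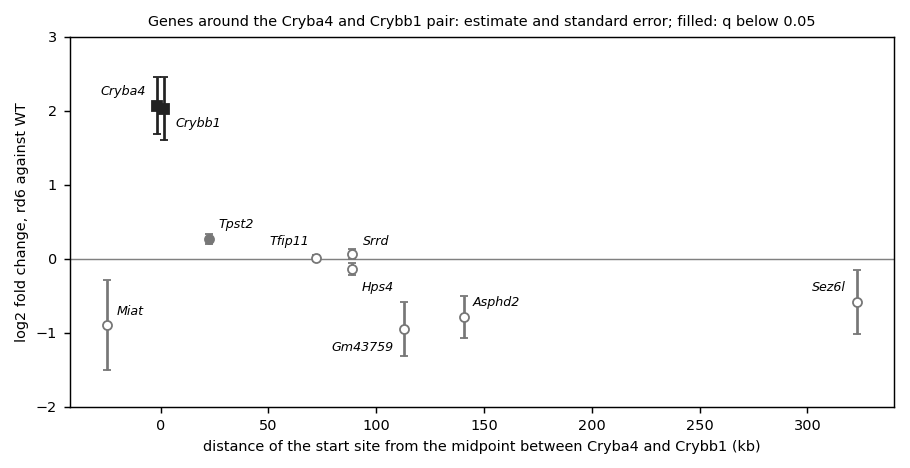
Difference between rd6 and WT on the log2 scale (y axis, limma estimate with its standard error) of Cryba4, Crybb1 and the 8 other genes tested within 500 kb, by the distance of the start site from the midpoint of the pair (x axis, kb). Cryba4 and Crybb1 are shown as fitted without a filter, filled symbols mark q below 0.05, and the other genes lie between -0.96 and 0.27.

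Crybb3, a basic beta crystallin at chr5:113075839-113081584 (minus strand; ENSMUSG00000029352), was the most variable of the 3 crystallins tested. In WT it ran from 8.88 to 23.3 normalized counts, with a median of 18.04. In rd6 it ran from 7.95 to 30.9, with a median of 17.0. The rd6 libraries fell both above and below the WT libraries, replicate 2 being the highest and replicate 6 the lowest of all 12. The log2 fold change was -0.07 (SE 0.34, 95% interval -0.81 to 0.67, q = 0.901, limma; exact permutation p = 0.833), and its sign depended on the test and on single libraries. The interval leaves room for changes of over 1.5-fold in either direction, from 0.570-fold to 1.59-fold.

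Crybb2, the most abundant basic beta crystallin of the lens (chr5:113058258-113070117, minus strand; ENSMUSG00000042240), is the neighbour of Crybb3 at a gap of 5722 bases. It had 4 reads in WT and 4 in rd6, in 2 libraries of each genotype, and shares 481 bases with the pseudogene Gm43247. Cryba1, whose product is a lens crystallin that has also been studied in the lysosomes of RPE cells (chr11:77718615-77725283, minus strand; ENSMUSG00000000724), had 1 read in 1 WT library and 1 read in 1 rd6 library. It lies wholly within Nufip2 on the opposite strand. Reads of Crybb2 or Cryba1 that overlap these other genes may have been left unassigned, and no fold change is given for either.

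Crygn, a crystallin with features of the beta and gamma families that is expressed in retina, lies at chr5:24751003-24758008 (minus strand; ENSMUSG00000038135). In WT its normalized counts ran from 222 to 271, with a median of 244. In rd6 they ran from 284 to 363, with a median of 292. All 6 rd6 libraries lay above all 6 WT libraries, 4 of them within 11 counts of each other and replicates 5 and 6 well above. The mean was 312 ± 37.6 against 246 ± 22.2 (SD, n = 6), and the log2 fold change was 0.34 (SE 0.09, q = 0.0173, limma; exact permutation p = 0.00216), a 1.27-fold increase with a 95% interval from 1.10-fold to 1.45-fold. Wholly higher rd6 libraries in normalized counts were seen for 5.77% of the genes tested. On the TPM scale the genotypes overlapped for Crygn. There WT replicate 4 (28.014) lay above rd6 replicates 3 (28.013) and 4 (26.78). The increase stayed below the fold change that the study's own rule asks for in addition, a rule that 4.69% of genes passed in this direction. Without the 3 libraries high in Krt12 the log2 fold change was 0.35 (q = 0.0303, limma). Next to Crygn, Wdr86 was also called higher (log2 fold change 0.43, SE 0.14, q = 0.0436), though not without a filter (q = 0.0552, limma), and Rheb, a GTPase that activates mTOR, was not called (-0.12, SE 0.06, q = 0.201). The promoter window of Crygn had a GC content of 63.0% and held TGCTGA once, on the other strand at -228 to -223, and none of the other letters searched.

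Crygs, a gamma crystallin made late in lens fibre cells (chr16:22805203-22811577, minus strand; ENSMUSG00000033501), had 5 reads in WT and 9 in rd6, at most 3 in a library. Its level was at the floor in both genotypes, and a difference was not detectable at this depth.

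**Figure D4:**
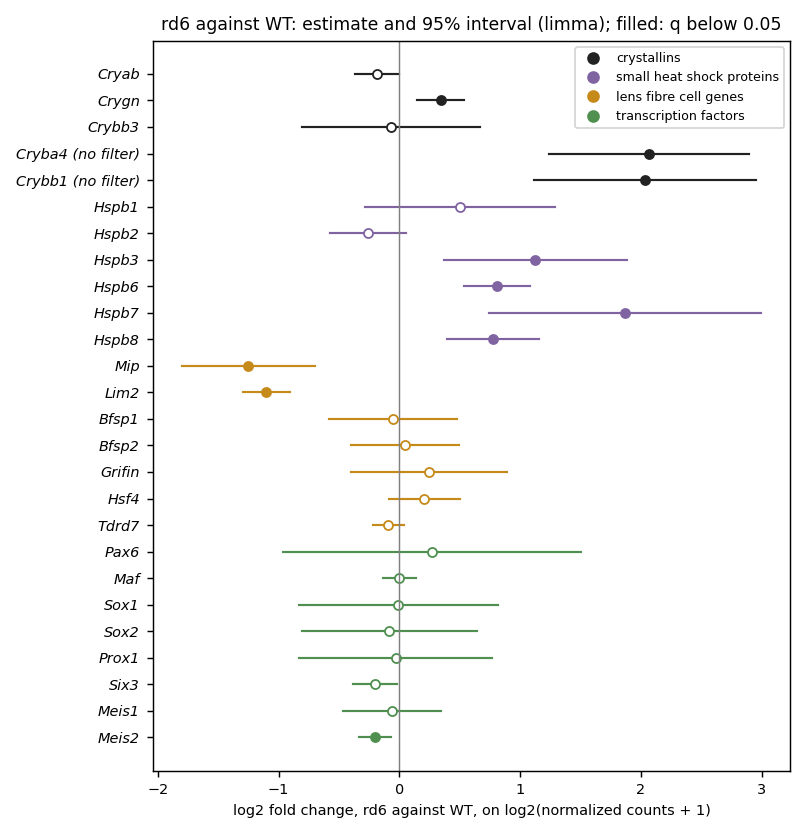
Difference between rd6 and WT with its 95% interval (x axis, limma on log2(normalized counts + 1)) for the crystallins above the floor and for the small heat shock proteins, lens fibre cell genes and transcription factors tested (1 gene per row). Filled circles mark q below 0.05, Cryba4 and Crybb1 are shown as fitted without a filter, and Mip and Lim2 lie furthest to the left.

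The spread between libraries of a genotype was larger for the low crystallins than for Cryab and Crygn. The coefficient of variation was 13.3% in WT and 7.40% in rd6 for Cryab, 9.03% and 12.1% for Crygn, and 28.5% and 50.2% for Crybb3. If reads were independent, counting error alone would give Crybb3 23.9% and 23.5%. For Cryba4 the coefficient was 63.2% in WT and 19.0% in rd6, where counting error gives 63.2% and 28.1%. For Crybb1 it was 77.7% and 39.3%, where counting error gives 65.5% and 29.3%. These figures cover counting error only, and the spread between samples beyond it was not tested.
Compared with genes whose mean lay within 2-fold of its own, Cryab had an SD of log2 values at percentile 75.7 in WT and 29.3 in rd6 (839 genes). Crygn was at percentiles 25.0 and 46.5 (4322 genes) and Crybb3 at 47.0 and 75.6 (2621 genes). Cryab thus varied more than most genes of its level in WT and less in rd6, and Crybb3 varied more than most in rd6.

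**Figure D5:**
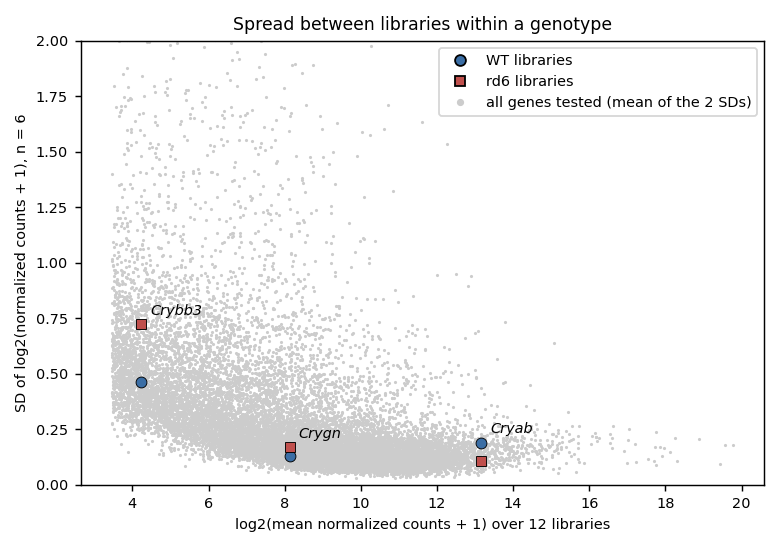
SD of log2(normalized counts + 1) over the 6 libraries of a genotype (y axis) against the log2 mean over all 12 libraries (x axis), with grey points for all genes tested (the mean of the 2 SDs, points above 2 not shown), circles for WT and squares for rd6. Cryab (0.19 and 0.11), Crygn (0.13 and 0.17) and Crybb3 (0.46 and 0.72) lie inside the cloud of genes at their level.

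Genes with the most similar pattern were sought over the 12 libraries for the summed crystallins other than Cryab, a sum that consists mostly of Crygn. As measured, Lgals1, which encodes galectin-1, was most alike (Pearson r = 0.987, Spearman rho = 0.972, n = 12), followed by Prdx3, Prmt1, Szrd1, Gpx1, Apex1, Nagk, Cyba, Idh3b and Idh3g, the last of the 10 at r = 0.961. This r includes the difference between the genotypes. With the mean of each genotype subtracted, the ribosomal protein gene Rps14 was most alike (r = 0.978, rho = 0.937), followed by Eef1d, Tmem134, Gm6204, Ranbp1, Gm9843, Lgals1 (r = 0.957), Mecr, Gm6745 and Gm10288, the last of the 10 at r = 0.951. All values of a library share its size factor, and the genes were picked as the highest of all tested.

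The relatives of the crystallins did not move as 1 group. Among other genes of the superfamily, Crybg1 (log2 fold change -0.32, SE 0.20, q = 0.271), Crybg2 (1.18, SE 1.77, q = 0.670) and Crybg3 (0.33, SE 0.22, q = 0.300) did not pass the test. The sign for Crybg2 turned with the test (-0.11 with DESeq2), and its mean was lower in rd6 (213 against 230). It ran from 0 to 1206 normalized counts in WT and from 2.86 to 640 in rd6, and the 3 highest libraries of Crybg1, Crybg2 and Crybg3 alike were the 3 with high Krt12. The gamma crystallins Cryga to Crygf were not analysed here. Of 5 genes that carry the name crystallin with another fold, 1 was called, against 23.0% of all genes tested in either direction. This was the quinone reductase Cryz, which fell by 0.25 on the log2 scale (SE 0.07, q = 0.0291, but 0.0548 with edgeR without a filter; 2175 ± 197 in WT and 1833 ± 164 in rd6, SD, n = 6).

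Of the small heat shock proteins related to Cryab, 4 of the 6 tested were called higher in rd6 and none lower, against 11.4% and 11.6% of all genes tested, with a median log2 fold change of 0.79. Hspb6, a partner chaperone of muscle, rose from 1291 ± 238 to 2244 ± 301 normalized counts (SD, n = 6; log2 fold change 0.81, SE 0.13, q = 0.000551) and did not overlap. Hspb7 rose from 96.1 ± 49.1 to 314 ± 164 (1.87, SE 0.52, q = 0.0213), and its rd6 minimum of 170 lay just above its WT maximum of 157. Hspb8 (0.78, SE 0.18, q = 0.00697) and Hspb3 (1.13, SE 0.35, q = 0.0349) also rose, with overlap. Without a filter Hspb3 was not called (q = 0.0528, limma), which leaves 3 of the 6. Hspb1 (0.50, SE 0.36, q = 0.351), also highest in the 3 libraries high in Krt12, and Hspb2, the neighbour that overlaps Cryab (-0.26, SE 0.14, q = 0.220), did not pass, and Hspb9 stayed at or under the floor. Like Cryab and Hspb2, which did not pass, the 4 that rose are known from muscle, whose genes were higher in rd6 as given above, and the part of muscle RNA in these values was not tested. Of 15 genes of the heat shock response, none was called higher and 1, Chordc1, was called lower, against 11.6% of all genes tested (median log2 fold change -0.16). That call was lost without a filter (q = 0.0558, limma).

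Among 9 transcription factors tested that act on crystallin genes, Meis2 was called lower in rd6 and none higher, a share near the 11.6% of all genes called lower. Meis2 fell by 0.20 on the log2 scale (SE 0.06, q = 0.0346), a call lost without a filter (q = 0.0555, limma). Maf, the MAF protein of lens fibre cells, was at 1177 ± 93.3 in WT and 1176 ± 81.2 in rd6 (SD, n = 6; 0.00, SE 0.06, q = 0.998). Pax6 varied most, from 374 to 4507 in WT and from 609 to 2517 in rd6 (0.27, SE 0.57, q = 0.771), with its 3 highest libraries those high in Krt12. Its mean was slightly lower in rd6 (1281 against 1352), and the sign turned with DESeq2 (-0.08). Sox1, Sox2, Prox1, Six3, Hsf4 and Meis1 did not pass the test, with log2 fold changes from -0.20 for Six3 to 0.21 for Hsf4, and Pitx3 and Foxe3 were at or under the floor.

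Of the lens fibre cell genes, 7 were tested, and 2 were called lower in rd6 and none higher (median log2 fold change -0.06), where 11.6% of all genes tested were called lower. Lim2, a lens membrane protein, ran from 458 to 611 normalized counts in WT and from 235 to 302 in rd6, without overlap (log2 fold change -1.10, SE 0.09, q = 2.8e-06), and 5.67% of the genes tested had rd6 libraries wholly below the WT libraries. Mip, the lens water channel, was at 38.4 ± 10.3 in WT and 15.6 ± 4.97 in rd6 (SD, n = 6; -1.25, SE 0.26, q = 0.00361). Bfsp1 and Bfsp2, the beaded filament proteins of lens fibres, Grifin, Hsf4 and Tdrd7 did not pass, with log2 fold changes between -0.09 and 0.25. Gja3, Birc7 and Dnase2b had means under 10, and Lctl, Lenep and Lgsn were not analysed here. Of the crystallins that make up most of the lens, Cryaa, Cryba1, Crybb2 and Crygs were at or under 3 reads in all 12 libraries.

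Markers of other tissues near the RPE are given beside these results, to be read against the 11.4% of all genes called higher and the 11.6% called lower. Of 17 rod genes, 5 were called lower and none higher, and their sum ran from 77788 to 120068 normalized counts in WT and from 43478 to 91091 in rd6. Of 12 genes of Müller glia and astrocytes, 2 were called higher and 2 lower, and of 7 Schwann cell and myelin genes 4 were called lower and none higher. Of 7 smooth muscle genes, 2 were called higher and 1 lower. The 8 corneal and conjunctival genes summed to 322 to 229876 in WT and 769 to 110233 in rd6, and none of the 7 tested was called. Of 13 RPE genes, 5 were called lower and none higher. The part of these tissues in the crystallin values was not tested.

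Of the 8 protein-coding neighbours of the crystallins on other chromosomes, 3 were called, against 23.0% of all genes tested. Next to Cryab, 1110032A03Rik, at a gap of 6192 bases, fell by 0.35 on the log2 scale (SE 0.06, q = 0.00106) without overlap between the genotypes, whereas 2310030G06Rik on the other side did not pass (0.21, SE 0.08, q = 0.0800). Next to Cryba1, the myosin gene Myo18a was called higher (0.33, SE 0.07, q = 0.00687), and next to Crygs the kinase gene Dgkg was called lower (-0.67, SE 0.22, q = 0.0408; without a filter q = 0.0746 and not called, limma), although both crystallins themselves were at the floor. The remaining protein-coding neighbours tested were Grk3, 2900026A02Rik, U2af1, Sik1, Taok1 and Tbccd1, none of which was called.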

How the data were processed

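RNA of 12 RPE samples, 6 WT and 6 rd6, was sequenced as stranded total-RNA libraries. According to the study's methods and the submitters' processing notes, the authors aligned read pairs to mm10, counted them with Rsubread at its standard settings, which by default ignore the strand and assign no read that overlaps more than 1 gene, and normalized them with DESeq2; the versions are not given in the sources used here. The deposited values are a signal: for each gene, the reads of a library over the size factor that the authors' DESeq2 run gave it. The log2 fold changes, standard errors, statistics, p-values and means in the same table come from the authors' own comparison and were not used. Of 28596 entries, 5 repeated ones were dropped. In each library 100% of the values were whole multiples of 1 read (tolerance 0.001), so reads were recovered. No pair of libraries agreed within sampling noise (the lowest mean chi-square over genes in 66 pairs was 9.45).

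Genes with a mean of at least 10 were tested with limma 3.58.1 (R 4.3.3; lmFit, eBayes with a mean-variance trend) on log2(value + 1), with genotype as the only term and Benjamini-Hochberg adjustment over all genes tested. The design named edgeR for counts and limma for normalized values, and the file held the latter. Single crystallins were also compared by a two-sided exact permutation test of mean log2 values. edgeR 4.0.16 and DESeq2 1.42.0 on the recovered reads, other pseudocounts and filters, TMM rescaling, a replicate block and leaving out libraries were the alternatives. The script was tested on simulated data. Positions and exon lengths for TPM came from GENCODE M21 (GRCm38; 28510 genes matched), and promoters from RefSeq, which held 9 of the named crystallins. Floors of 3 reads cover counting error only, since amplified reads are not independent molecules.

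The crystallins and the marker lists were chosen with earlier results of these data known. Named are all crystallins, the tested genes with values of 4 lists (other crystallins, small heat shock proteins, lens fibre cell genes and transcription factors), Mfrp, the nearest protein-coding neighbours, and the 10 genes most correlated with the summed crystallins other than Cryab; other lists are given by counts, and genes named beyond this, such as Cryz, Chordc1, Csf1r and Krt12, were chosen after their values were seen. Further genes of the lists of transcription factors and lens fibre cell genes are not reported here, and the counts leave them out.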

Additional observations from a re-analysis of the deposited data

Results flagged for a closer look

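In 18 groups of 6 libraries, 9 crystallins in each genotype, 3 held a library whose distance from the others exceeded the limit of Dixon's test, of which chance alone flags about 1 in 20. For Cryba1, WT replicate 6 (0.967 normalized counts) and rd6 replicate 3 (1.03) stood apart because each holds the single read of its genotype, at the floor of detection. For Cryba4, rd6 replicate 6 (16.9 normalized counts) stood above the other rd6 libraries, with a gap of 0.681 of the range of the group.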

How the results depend on the processing

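The count of crystallins called higher in rd6 was 1, and it became 3 without a filter, with DESeq2 and with edgeR without a filter, since Cryba4 and Crybb1 then entered the test. None was called lower in any setting. Crygn kept its call in all 22 settings (log2 fold change 0.30 to 0.37, q from 0.00479 to 0.0416), and Cryab stayed uncalled (-0.23 to -0.13, q from 0.0567 to 0.265). Without a filter Cryba4 ranged from 0.84 to 2.85 and Crybb1 from 0.78 to 2.85, the extremes being pseudocounts of 10 and 0.1, with q below 0.05 in all 18 settings. Without the 3 libraries high in Krt12 they were at 2.11 (q = 0.0263) and 2.16 (q = 0.0381), both by limma. Crybb3 changed sign to 0.015 with edgeR, 0.014 with DESeq2, 0.039 with edgeR without a filter, 0.0017 without the 3 libraries high in Krt12, and ranged from -0.25 to 0.12 when 1 library was left out, positive without WT replicate 4 (0.013), rd6 replicate 4 (0.043) or rd6 replicate 6 (0.12). It could not be fitted where at least 10 counts in every library were asked for. The cause was not tested. Chosen after seeing the data were edgeR without a filter, leaving out the 3 libraries high in Krt12, and, for Cryba4 and Crybb1, all settings other than limma without a filter and DESeq2.

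The replicate numbers shared by the genotypes did not pair the samples, since the correlations of same-numbered libraries ran from -0.743 to 0.315. With the replicate number as a block, 1 crystallin was called higher and 0 lower, Crygn at q = 0.0280 and, without a filter, Cryba4 at 0.0164 and Crybb1 at 0.0178 (limma). Depth limits the report for the 4 crystallins at or under 3 reads, and the ratios of Cryba4 and Crybb1 rest on 15 and 14 WT reads.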
